A study of Mus musculus with 4 samples.

Results

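The genes of the ATP-driven cation pumps and of the vacuolar proton ATPase (V-ATPase) were described in Lgr5+ and Lgr6+ progenitors of the neonatal mouse cochlea. They were taken by gene symbol: the alpha and beta subunits of the Na,K-ATPase, its FXYD regulators, the SERCA, plasma membrane and secretory pathway calcium pumps, the copper pumps and all genes whose symbol starts with Atp6. This gave 52 of the 23997 genes in the deposited table. Lgr5+ progenitors were EGFP+ cells sorted from Lgr5-EGFP-IRES-creERT2 mice and Lgr6+ progenitors were EGFP+ cells sorted from Lgr6-EGFP-IRES-CreERT2 mice, all of strain C57BL/6 by the labels and at postnatal day 3 by the methods. In both lines the reporter is driven by the gene it is named for, and dead cells were gated out with propidium iodide. *Lgr6* is known from a subset of the inner pillar cells, which carry *Lgr5* as well, so the populations overlap in kind. The labels list 2 libraries for each population, while the methods describe 3 fractions of a single RNA extraction.

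Each gene has 1 FPKM value (fragments per kilobase of transcript, scaled to the mapped fragments) for each population, in which the libraries are combined. The spread between libraries is therefore unknown, no difference below has a replicate check, and no test was made. A member passed the filter on low values when its FPKM was at least 1 in at least 1 population, which held for 39 of the 52 members and for 13436 of all genes. Differences are given as log2(FPKM + 1) in Lgr6+ minus Lgr5+ progenitors, so that negative values are higher in Lgr5+ progenitors. A gene is called higher in a population when it differs by at least 1.5-fold on that scale, which understates the difference of low genes. A bulk value cannot tell fewer cells of a type from less RNA per cell.

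Pumps of these families move ions against their gradient at the cost of ATP. The Na,K-ATPase exports sodium and imports potassium, and in the cochlear lateral wall it helps to keep the endolymph rich in potassium. Calcium pumps clear calcium from the cytosol to the outside, to the endoplasmic reticulum or to the Golgi. In the V-ATPase the cytosolic V1 sector splits ATP and turns the membrane-bound V0 sector, which carries protons into lysosomes, endosomes and secretory vesicles. Mutations of the pump genes *Atp2b2*, *Atp6v1b1* and *Atp6v0a4* are known causes of hearing loss.

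These genes were expressed at high levels. In both populations 28 of the 39 members that passed lay above the median FPKM of all genes that passed, which was 9.40 in Lgr5+ and 9.95 in Lgr6+ progenitors; 5697 of all 13436 genes did so. *Atp6v1f* (subunit F of V1) was the highest member, with an FPKM of 795 in Lgr5+ and 568 in Lgr6+ progenitors, and *Atp6v1g1* (subunit G) had 493 and 421. Of the 13 members below the filter, *Atp1a4*, *Atp1b4*, *Fxyd4*, *Atp6v1e2*, *Atp6v0d2* and *Atp6ap1l* were listed at 0 in both populations. The other 7, among them *Atp2a1*, *Atp2c2*, *Atp7b*, *Atp6v1b1*, *Atp6v1g3* and *Atp6v0a4*, reached at most 0.6001. A 0 in such a table can be a failed estimate.

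**Figure D1:**
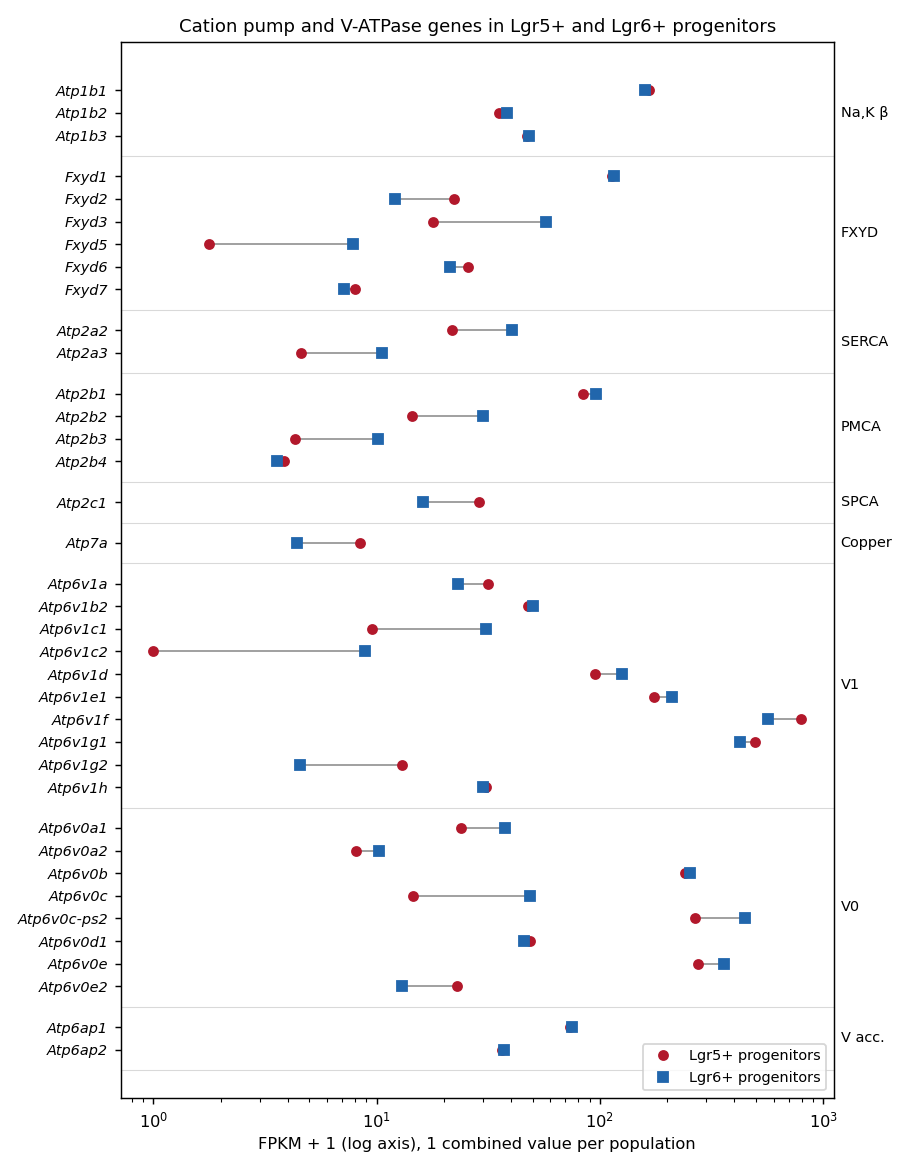
Horizontal axis, FPKM + 1 on a log axis; each line joins the Lgr5+ value (red circle) and the Lgr6+ value (blue square) of 1 of 37 members that passed the filter, grouped by role at the right edge (V acc., V-ATPase accessory proteins). The beta subunits, *Fxyd1* and the accessory proteins nearly coincide, while *Fxyd5* and *Atp6v1c2* lie far apart, with *Atp6v1c2* at 0 in Lgr5+ progenitors.

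Of the 39 members, 6 were called higher in Lgr5+ and 11 in Lgr6+ progenitors, while 22 differed by less than 1.5-fold. The members called were 15.4% toward Lgr5+ and 28.2% toward Lgr6+, against 23.3% and 28.5% of all genes that passed. As a group the members were thus not called more often than other genes, and their median difference of 0.07 lay close to the 0.03 of all genes. Among those higher in Lgr5+ progenitors were *Fxyd2*, *Atp2c1*, *Atp7a*, *Atp6v1g2* and *Atp6v0e2*. The 11 higher in Lgr6+ progenitors were *Fxyd3*, *Fxyd5*, *Atp2a2*, *Atp2a3*, *Atp2b2*, *Atp2b3*, *Atp6v1c1*, *Atp6v1c2*, *Atp6v0a1*, *Atp6v0c* and *Atp6v0c-ps2*. Of these, *Fxyd5* and *Atp6v1c2* passed the filter through their Lgr6+ value alone, and the 0 of *Atp6v1c2* in Lgr5+ progenitors then fixed its call. The summed FPKM of all genes was 83.3% in Lgr6+ of that in Lgr5+ progenitors; scaled to the same sum, which adds 0.26 to the log2 of every Lgr6+ value, 3 members were higher in Lgr5+ and 14 in Lgr6+ progenitors (against 16.3% and 37.6% of all genes that passed), and *Atp2c1* and *Atp6v0e2* were among those no longer called.

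**Figure D2:**
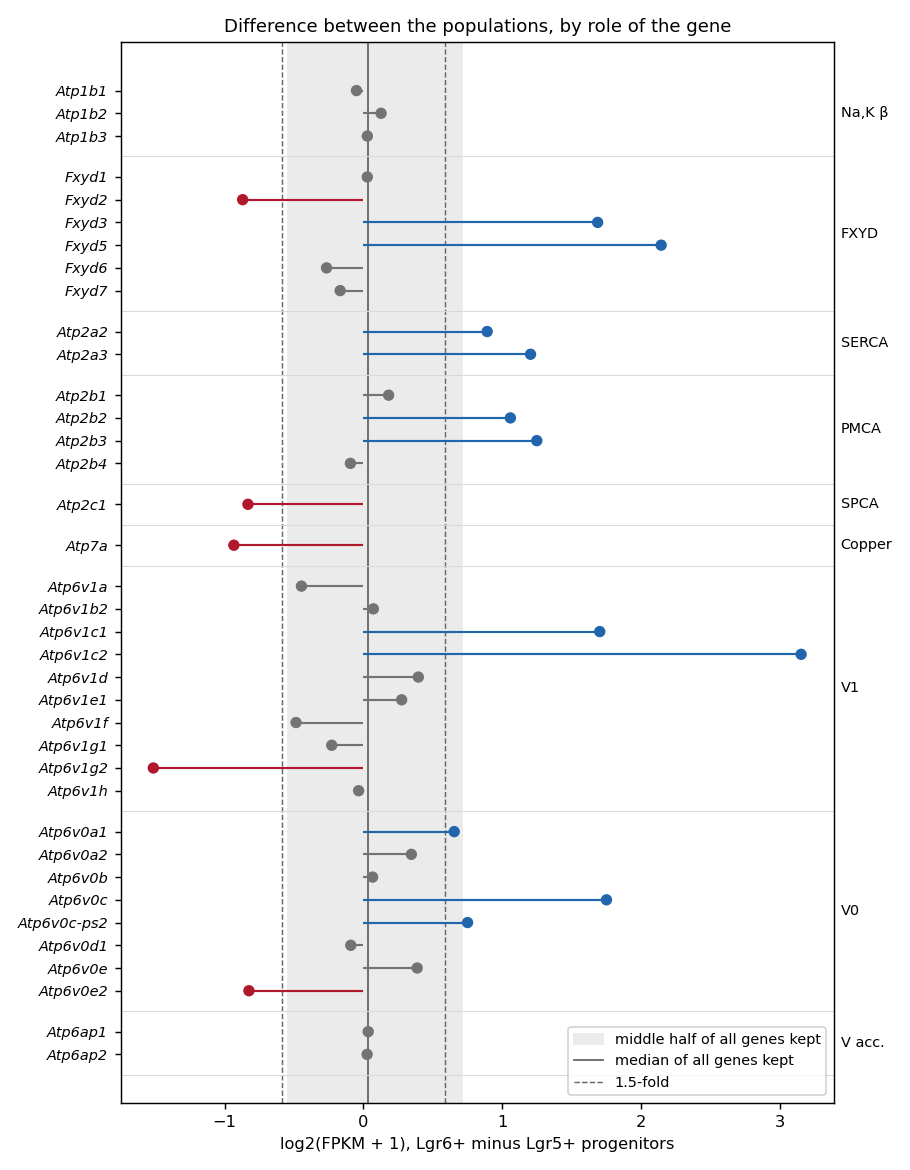
Difference of log2(FPKM + 1), Lgr6+ minus Lgr5+ progenitors, for 37 members by role; red, called higher in Lgr5+ (5 genes); blue, called higher in Lgr6+ (11 genes); gray, under 1.5-fold (21 genes). The shaded band runs from the lower quartile (-0.54) to the upper quartile (0.71) of all 13436 genes that passed, and it holds both beta and accessory subunits whole.

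Markers of cell types were counted with the same filter and threshold. Over all genes that passed, 23.3% were higher in Lgr5+ and 28.5% in Lgr6+ progenitors. All 10 supporting cell markers passed the filter, with a summed FPKM of 5185 in Lgr5+ and 4582 in Lgr6+ progenitors, and 3 of them were higher in Lgr5+ and 1 in Lgr6+ progenitors. All 10 hair cell markers passed too, 7 of them higher in Lgr6+ progenitors and none in Lgr5+ progenitors, with sums of 1500.4 and 2254. For macrophages, 8 of 10 markers passed and all 8 were higher in Lgr6+ progenitors, with sums of 3.88 and 264. All of these but *Cd68* were below 1 in Lgr5+ progenitors and passed through their Lgr6+ value alone. *C1qb*, *C1qc*, *Tyrobp*, *Csf1r* and *Aif1* were listed at 0 in Lgr5+ progenitors, where passing the filter fixes the call. *Ptprc*, at 0 in Lgr5+ and 0.00814 in Lgr6+ progenitors, and *Cx3cr1*, at 0.215 and 0.681, did not pass. Fibrocyte and mesenchyme markers were higher in Lgr6+ progenitors for 5 of 10 and in Lgr5+ progenitors for 1, with sums of 329.6 and 609. Of 8 Schwann cell and glial markers 6 passed and 3 of these (50%) were higher in Lgr6+ progenitors, with sums of 603 and 1669.9. All 8 endothelial and pericyte markers passed, 6 of them higher in Lgr6+ and 1 in Lgr5+ progenitors, with sums of 15.3 and 60.9. Among them, *Kdr* and *Rgs5* were listed at 0 in Lgr5+ progenitors, where passing the filter fixes the call. *Pecam1*, at 0.303, and *Tek*, at 0.423, were below 1 there, so all of these passed through their Lgr6+ value alone. *Tie1*, at 2.09 in Lgr5+ and 0.999 in Lgr6+ progenitors, passed through its Lgr5+ value alone. Of 10 neuronal markers 9 passed, with sums of 126 and 146. Calls among these, 3 (33.3%) toward Lgr6+ and 2 (22.2%) toward Lgr5+ progenitors, were near the shares of all genes. Of the called, *Prph*, at 0 in Lgr5+ and 1.04 in Lgr6+ progenitors, and *Tubb3*, at 1.18 and 0.0959, passed through their higher value alone. Of 6 erythroid markers 5 passed and 4 of these (80%) were higher in Lgr5+ progenitors, with sums of 629.8 and 108. *Hba-a1* and *Hba-a2*, at 0.710 and 0.712 in Lgr6+ progenitors, passed through their Lgr5+ value alone. Of 8 melanocyte markers 4 passed, 2 of them higher in Lgr6+ and 1 in Lgr5+ progenitors. Their sums were 18.8 and 38.8, with *Tyrp1* and *Mlana* at 0 in both. *Pmel*, at 0.318 in Lgr5+ and 3.03 in Lgr6+ progenitors, was called but passed through its Lgr6+ value alone. Strial marginal cell markers had sums of 43.5 and 66.05, with *Kcne1*, *Hmx2* and *Bsnd* at 0 in both populations. Of these 9 markers 3 passed, and 1, *Kcnq1*, listed at 0 in Lgr5+ progenitors, was higher in Lgr6+ progenitors. What part these cells have in the pump values was not tested. Of the sorting genes, *Lgr5* had an FPKM of 9.65 in Lgr5+ and 24.99 in Lgr6+ progenitors, and *Lgr6* had 2.06 and 2.903, so the Lgr5 transcript itself was 2.59 times as high in the Lgr6+ population.

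The beta subunits, which carry the pump to the cell surface, hardly differed. *Atp1b1*, the most abundant, had an FPKM of 164 in Lgr5+ and 159 in Lgr6+ progenitors. *Atp1b3* had 46.4 and 47.3, and *Atp1b2*, an adhesion molecule of glia and also a subunit of the strial pump, had 34.2 and 37.4. The differences ran from -0.05 to 0.13. Their sum was 245 in Lgr5+ and 243 in Lgr6+ progenitors, of which *Atp1b1* held 67.1% and 65.2%.

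FXYD proteins are small single-span membrane proteins that sit on the Na,K-ATPase and tune its affinity for ions. Together with the pump subunits, 15 genes of which 11 passed, they had a median difference of 0.03, but single FXYD genes lay far from it. *Fxyd1* (phospholemman) was the most abundant, with an FPKM of 113 in Lgr5+ and 115 in Lgr6+ progenitors. *Fxyd3* had 16.9 in Lgr5+ and 56.5 in Lgr6+ progenitors, a difference of 1.69 and a ratio of 3.35. *Fxyd5* (dysadherin, which weakens cell adhesion) had 0.768 and 6.81, a difference of 2.14. The reverse order held for *Fxyd2*, the gamma subunit of the renal pump, with 21.2 in Lgr5+ and 11.1 in Lgr6+ progenitors, a difference of -0.87. *Fxyd6* had 24.5 and 20.2 and *Fxyd7* had 7.03 and 6.15, both under 1.5-fold.

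The share of *Fxyd3* in the summed FXYD FPKM was thus 9.21% in Lgr5+ and 26.2% in Lgr6+ progenitors, while that of *Fxyd1* was 61.5% and 53.2% and that of *Fxyd2* was 11.6% and 5.16%. The FXYD genes lie in groups. *Fxyd5*, *Fxyd7*, *Fxyd1* and *Fxyd3* follow each other within 44.0 kb of chromosome 7, from 31032723 to 31076697 (positions here and below in GRCm38), with gaps of 183, 223 and 4278 bases. The 2 genes at the ends of this stretch, *Fxyd5* and *Fxyd3*, were higher in Lgr6+ progenitors, and the 2 between them, *Fxyd7* and *Fxyd1*, differed by -0.17 and 0.03. *Fxyd6* and *Fxyd2* are neighbors on chromosome 9, with 3549 bases between them, and differed by -0.27 and -0.87.

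**Figure D3:**
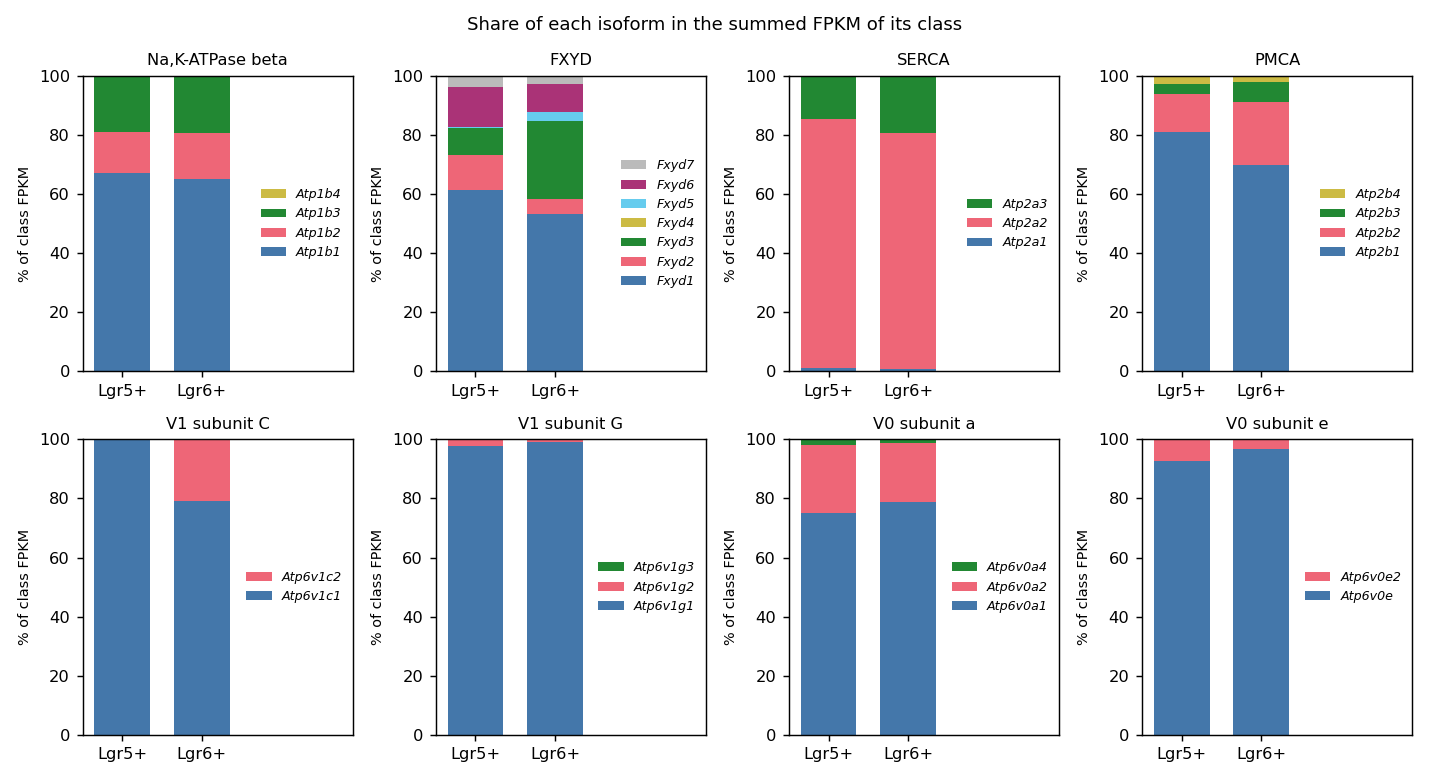
Stacked bars give each isoform's percent of the summed FPKM of its subunit class, from 0 to 100%, in Lgr5+ (left bar) and Lgr6+ (right bar) progenitors, for 8 classes with more than 1 gene. *Fxyd3* widens from 9.21% to 26.2% between the bars, *Atp2b1* narrows from 81.0% to 69.9%, and *Atp6v1c2* is present in the Lgr6+ bar only.

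Of the 9 calcium pump genes 7 passed the filter, of which 4 (57.1%) were higher in Lgr6+ and 1 (14.3%) in Lgr5+ progenitors, beside 28.5% and 23.3% of all genes, with a median difference of 0.89. Both SERCA genes that passed, whose pumps fill the endoplasmic reticulum, were higher in Lgr6+ progenitors. *Atp2a2*, the general SERCA gene (chromosome 5, 122453513 to 122502225), measured 20.8 FPKM in Lgr5+ and 39.5 in Lgr6+ progenitors, a difference of 0.89 and a ratio of 1.90. *Atp2a3* (chromosome 11, 72961169 to 72993043) had 3.61 and 9.61, a ratio of 2.66. The muscle gene *Atp2a1* stayed at 0.279 and 0.402. The summed SERCA FPKM was 24.7 in Lgr5+ and 49.5 in Lgr6+ progenitors.

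Of the pumps that expel calcium across the plasma membrane, *Atp2b1* was the most abundant, with an FPKM of 83.4 in Lgr5+ and 94.6 in Lgr6+ progenitors, a difference of 0.18. *Atp2b2*, whose product PMCA2 is the calcium pump of hair cell stereocilia (chromosome 6 from 113745668 to 114042080), had 13.4 and 29.0, a difference of 1.06 and a ratio of 2.16. *Atp2b3*, a mainly neuronal pump (chromosome X, 73503086 to 73573270), had 3.29 and 9.20, a difference of 1.25. *Atp2b4* had 2.84 and 2.59. The share of *Atp2b2* among the 4 genes was 13.0% in Lgr5+ and 21.4% in Lgr6+ progenitors, and that of *Atp2b1* was 81.0% and 69.9%. The populations in which *Atp2b2* differed also differed in the hair cell markers given above, 7 of 10 of which were higher in Lgr6+ progenitors; their part in this value was not tested.

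Of the secretory pathway pumps only 1 passed the filter. *Atp2c1*, which supplies the Golgi with calcium and manganese (chromosome 9, 105411362 to 105521257), measured 27.8 FPKM in Lgr5+ and 15.2 in Lgr6+ progenitors, a difference of -0.83 that fell short of 1.5-fold, at -0.58, with both populations scaled to the same sum. *Atp2c2*, the SPCA of secretory epithelia, had 0 and 0.6001, below the filter. Of 24 regulators of calcium pumps and genes of calcium stores, 21 were in the table and 19 passed, with a median difference of -0.23. Calls were 2 (10.5%) toward Lgr5+ and 2 (10.5%) toward Lgr6+ progenitors, beside 23.3% and 28.5% of all genes. *Orai1* and *Orai2*, channels of store-operated calcium entry, were higher in Lgr5+ progenitors, with 13.9 against 5.58 and 16.4 against 9.92. *Calm2*, 1 of the 3 calmodulin genes, had 403 in Lgr5+ and 795 in Lgr6+ progenitors, and *Nptn*, whose product neuroplastin is a partner of the plasma membrane pumps, had 38.6 and 59.0. Phospholamban, the inhibitor of SERCA, had an FPKM of 3.45 and 4.97 (*Pln*), a difference of 0.42, and *Sln* was listed at 0 in both.

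*Atp7a*, which delivers copper to enzymes in the secretory pathway (chromosome X, 106027224 to 106128160), measured 7.44 FPKM in Lgr5+ and 3.42 in Lgr6+ progenitors, a difference of -0.93. *Atp7b*, the liver pump, was at 0.0469 in Lgr5+ and listed at 0 in Lgr6+ progenitors. All 9 further copper handling genes passed the filter, with a median difference of -0.01. In each direction 2 (22.2%) were called, beside 23.3% of all genes toward Lgr5+ and 28.5% toward Lgr6+ progenitors. *Slc31a1*, the main copper importer, had 2.78 in Lgr5+ and 12.3 in Lgr6+ progenitors, and *Sco2*, a copper chaperone of cytochrome oxidase, had 11.2 and 21.9. *Sod1*, the copper and zinc superoxide dismutase, had 1008 and 373, and *Slc31a2* had 3.45 and 1.02. *Atox1*, the chaperone that hands copper to *Atp7a*, differed by -0.01 at an FPKM of 1277 and 1272.

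Most V-ATPase genes differed little. Of the 25 named subunit and accessory genes 19 passed the filter, with 2 (10.5%) higher in Lgr5+ and 4 (21.1%) in Lgr6+ progenitors, beside 23.3% and 28.5% of all genes, 13 under 1.5-fold and a median difference of 0.07. In the V1 sector, subunits A and B form the ring that splits ATP. *Atp6v1a* had an FPKM of 30.7 in Lgr5+ and 22.3 in Lgr6+ progenitors and *Atp6v1b2* had 46.8 and 49.2. The other B gene, *Atp6v1b1*, which serves acid-secreting cells, was listed at 0 in Lgr5+ and had 0.0464 in Lgr6+ progenitors, so at least 99.9% of the B subunit FPKM came from *Atp6v1b2* in both. *Atp6v1d*, *Atp6v1e1*, *Atp6v1f*, *Atp6v1g1* and *Atp6v1h*, parts of the stalks and the regulatory subunit, differed by between -0.49 and 0.40.

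Subunit C, which holds V1 to V0 and is released when the enzyme comes apart, was the part of V1 that differed most. *Atp6v1c1* (chromosome 15, 38661904 to 38692444) measured 8.51 FPKM in Lgr5+ and 29.9 in Lgr6+ progenitors, a difference of 1.70 and a ratio of 3.52. *Atp6v1c2*, on chromosome 12 between 17266595 and 17324730, was listed at 0 in Lgr5+ and at 7.89 in Lgr6+ progenitors, where it supplied 20.9% of the C subunit FPKM. *Atp6v1g2*, the neuronal form of subunit G (chromosome 17, 35236596 to 35238768), was the member with the largest difference toward Lgr5+ progenitors, with 11.9 against 3.53 and a difference of -1.51. It made up 2.36% and 0.832% of the G subunit FPKM, so the class as a whole was set by *Atp6v1g1*.

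In the V0 sector the a subunits decide to which membrane the enzyme goes. *Atp6v0a1* (chromosome 11, 101009452 to 101063717) measured an FPKM of 23.0 in Lgr5+ and 36.7 in Lgr6+ progenitors, a difference of 0.65, *Atp6v0a2* had 7.10 and 9.28, and *Atp6v0a4* had 0.546 and 0.535. Their shares of the a subunit FPKM were 75.1%, 23.2% and 1.78% in Lgr5+ progenitors and 78.9%, 19.9% and 1.15% in Lgr6+ progenitors. The a3 subunit is encoded by *Tcirg1*, whose symbol lies outside the rule. It had 13.6 and 20.4, and with it in the class its own share was 30.8% and 30.5%, while *Atp6v0a1* held 51.97% and 54.9%. *Atp6v0b*, *Atp6v0d1* and *Atp6v0e* had 240.2, 47.7 and 273 in Lgr5+ progenitors and 251, 44.7 and 357 in Lgr6+ progenitors, all under 1.5-fold. *Atp6v0e2* (chromosome 6, 48537569 to 48541800) had 21.9 and 11.9, a difference of -0.83, and its share of the e subunit was 7.44% and 3.23%. *Atp6v0d2*, the d subunit of osteoclasts and of some macrophages, was listed at 0 in both populations. The accessory proteins *Atp6ap1* and *Atp6ap2* (the prorenin receptor) both differed by 0.03, at an FPKM of 72.5 and 74.2 and of 35.4 and 36.0.

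Subunit c, the proteolipid of the rotating ring, cannot be read from 1 row. *Atp6v0c* had an FPKM of 13.5 in Lgr5+ and 47.7 in Lgr6+ progenitors, a difference of 1.75. The row named *Atp6v0c-ps2*, for a pseudogene, had 264 and 445, a difference of 0.75. Both rows carry the same interval, chromosome 17 from 24163865 to 24169429, which is that of *Atp6v0c*, while RefSeq places the pseudogene on chromosome 6 from 37805975 to 37807107. Fragments of the gene and of its copy may be divided between the rows. Their sum was 278 in Lgr5+ and 493 in Lgr6+ progenitors, a ratio of 1.77 and a difference of 0.82, and 95.1% and 90.3% of it lay in the pseudogene row. The sum is still more than 1.5-fold higher in Lgr6+ progenitors, but the difference of 1.75 in the row of *Atp6v0c* alone depends on how the fragments were divided. Counted as 1 gene, they bring the members higher in Lgr6+ progenitors from 11 to 10.

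All 16 V-ATPase partners outside the rule passed the filter, with a median difference of 0.27. Of these, 4 (25%) were higher in Lgr6+ and 1 (6.25%) in Lgr5+ progenitors, beside 28.5% and 23.3% of all genes. *Rogdi*, of the complex that assembles V1 with V0, had an FPKM of 83.5 in Lgr5+ and 225 in Lgr6+ progenitors. *Vma21*, an assembly factor of V0, had 3.95 and 10.03. Of the Ragulator complex, which links the V-ATPase to growth signaling on lysosomes, *Lamtor3* was higher in Lgr6+ progenitors, with 59.1 against 36.0, and *Lamtor2* in Lgr5+ progenitors, with 359 against 223. Of 25 genes of lysosomes and of the TFEB family of lysosomal regulators, 24 passed the filter, with a median difference of 0.09. Calls were 6 (25%) toward Lgr5+ and 5 (20.8%) toward Lgr6+ progenitors, beside 23.3% and 28.5% of all genes. *Gla*, at 0.568 in Lgr5+ and 3.10 in Lgr6+ progenitors, differed by 1.39, and *Tpp1*, at 11.2 and 22.9, by 0.97. Toward Lgr5+ progenitors, *Mitf*, at 1.18 and 0.121, differed by -0.96, and *Hexa*, at 52.5 and 27.9, by -0.89. *Gla* and *Mitf* passed the filter through their higher value alone. Of 23 other P-type ATPases 13 passed, with a median difference of 0.37. Of these, 4 (30.8%) were higher in Lgr6+ and 1 (7.69%) in Lgr5+ progenitors, beside 28.5% and 23.3% of all genes. The largest difference was that of *Atp13a3*, with 4.77 in Lgr5+ and 15.9 in Lgr6+ progenitors.

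Sequences before the gene starts were compared for what the members share. RefSeq promoter windows of GRCm38.p6, from 250 bases before to 50 after each annotated start, were matched for 35 of the 52 members, among them 18 of the 25 V-ATPase genes. The motif TCACGTGA, the core of the element through which TFEB acts on lysosomal genes, was searched; it reads the same on both strands and contains CACGTG. It was found for 3 of the 18 V-ATPase genes (16.7%), for 2 of the 17 other members and for 1.12% of the 27025 genes with a window. The shorter CACGTG was found for 4 of the 18 (22.2%), for 3 of the 17 and for 8.09% of all genes. The members with TCACGTGA did not share a direction, with differences of -0.45 for *Atp6v1a*, -0.09 for *Atp6v0d1*, 0.39 for *Atp6v0e*, 0.18 for *Atp2b1* and -0.93 for *Atp7a*. The stretches around these motifs are shown because they are what these members have in common in their promoters, with the motif in capitals.
Atp6v1a (chr16:44139374-44139431, minus strand): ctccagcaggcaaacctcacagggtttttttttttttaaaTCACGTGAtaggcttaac
Atp6v0d1 (chr8:105566051-105566108, minus strand): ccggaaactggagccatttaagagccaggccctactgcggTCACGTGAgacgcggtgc
Atp6v0e (chr17:26676358-26676415, plus strand): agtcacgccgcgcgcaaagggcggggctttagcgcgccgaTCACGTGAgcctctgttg
Atp2b1 (chr10:98914609-98914666, plus strand): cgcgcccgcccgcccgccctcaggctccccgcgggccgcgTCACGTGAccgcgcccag
Atp7a (chrX:106027096-106027153, plus strand): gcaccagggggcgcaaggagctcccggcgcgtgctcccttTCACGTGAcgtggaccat
The motif starts 132 bases before the annotated start in *Atp6v1a* and 88 before it in *Atp7a*, spans the start in *Atp6v0d1*, and begins at base 3 of the transcript in *Atp6v0e* and at base 8 in the window of *Atp2b1* that holds it, 1 of its 2 windows. A match shows only that these letters are present.

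The depth behind the low values was estimated from the spacing of the smallest ones. Transcripts and their lengths, here and below, were taken from the GENCODE annotation. Where it lists a single transcript, a low FPKM was multiplied by the transcript length in kb, after taking off 200 bases. This product gathered at a step of 0.128 in Lgr5+ and at 0.0399 in Lgr6+ progenitors. If a step is 1 fragment, the Lgr6+ values rest on 3.22 times as many fragments. Over its annotated transcripts of at least 500 bases, the Lgr5+ value of *Fxyd5* then stands for between 3.36 and 16.7 steps, so its ratio of 8.88 is uncertain. *Atp6v1c2*, listed at 0 in Lgr5+ progenitors, would have had between 26.9 and 84.2 steps there at its Lgr6+ level, whereas *Atp2c2* would have had 14.1 and *Atp6v1b1* 0.624. *Atp6v1g2* rested on at least 30.2 steps in Lgr5+ and 28.7 in Lgr6+ progenitors. These figures cover counting error only.

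Intervals of 20 members hold another gene in RefSeq, and the library kit does not keep the strand. Among the called members, the interval of *Atp6v1c2* shares 18191 bases with *Pdia6*, which had an FPKM of 238 in Lgr5+ and 185 in Lgr6+ progenitors, the opposite order to *Atp6v1c2*. That of *Fxyd3* shares 11001 bases with *Lgi4*, at 0.695 and 0.936. How far fragments of such neighbors entered the values was not tested. FPKM was also lower for genes with longer transcripts, with Spearman's rho of -0.36 in Lgr5+ and -0.32 in Lgr6+ progenitors over 19 V-ATPase genes and of -0.23 and -0.27 over 12325 genes, which share libraries. The orders of genes by level given above share this dependence on length. Length and the difference between the populations had a rho of 0.34 over the 19 V-ATPase genes and 0.27 over 38 members, against -0.00257 over all genes, and the part of length in the calls was not tested.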

How the data were processed

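Lgr5+ and Lgr6+ progenitors were compared in the table that the authors deposited. Per the paper's methods and the labels, the authors prepared libraries with the SMART-Seq v4 kit, used Trimmomatic, TopHat and Cufflinks to obtain the FPKM that they deposited, 1 combined value per gene and population. The labels name mm10 and the paper mm9; of 22500 symbols found in both the table and RefSeq GRCm38.p6, 98.8% had overlapping intervals, and starts were counted from 1. The table's fold changes, p-values and q-values of the authors' own comparison were not used. The members, gene lists and alternatives were chosen with earlier results of these data known.

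A gene passed with an FPKM of 1 or more in either population, and 1.5-fold on log2(FPKM + 1), a pseudocount of 1, was the threshold. Members that passed were named with values or in a range; of other pathway lists at most the 3 called genes with the largest change per direction were. Marker lists were counted, with some of the genes at 0 or below 1 in a population named. *Atox1*, *Pln*, *Sln*, *Tcirg1*, *Pdia6* and *Lgi4* were added after their values were seen. Values were computed in Python 3.11.15 (pandas 2.3.3, numpy 2.4.6 and scipy 1.17.1, figures with matplotlib 3.10.9). The code was checked on real Lgr5+ values into which known fold changes were put, without added noise. Depth per library and proteins were not analysed here, and some genes of these lists are not reported here.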

Additional observations from a re-analysis of the deposited data

How the results depend on the processing

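No paired analysis was possible because the table holds 1 value per population; leaving out a replicate was not run for the same reason. The numbers of members higher in Lgr5+ and in Lgr6+ progenitors, 6 and 11 as reported, were 3 and 14 with both populations scaled to the same summed FPKM, 1 and 8 at 2-fold (all genes, 11.7% and 18.2%), 5 and 12 after quantile normalization (26.5% and 24.7%), 6 and 12 without a filter (13.5% and 17.4%), 6 and 9 with both values required to reach 1 (22.5% and 21.4%), and 6 and 11 with a minimum FPKM of 5 (24.1% and 24.1%), a pseudocount of 0.1 (25.6% and 31.3%) or the same upper quartile (23.4% and 28.4%). Scaling to the same sum also moved the median difference of all genes from 0.03 to 0.28, and with it that of the members to 0.33, of the Na,K-ATPase and FXYD genes from 0.03 to 0.29, of the calcium pumps from 0.89 to 1.15 and of the V-ATPase genes to 0.33. Without a filter the calcium pump median was 0.68. Adding *Tcirg1* to the a subunits moved the share of *Atp6v0a1* to 51.97% and 54.9% and that of *Atp6v0a2* to 16.0% and 13.9% in Lgr5+ and Lgr6+ progenitors. Summing *Atp6v0c* with *Atp6v0c-ps2*, chosen after seeing the data, gave 6 and 10. None of the 17 called members changed direction in any of these alternatives, but only quantile normalization could have reversed a call. The pseudocount, filter and fold threshold cannot change which value is higher, and both summed rows were higher in Lgr6+ progenitors. Scaling to the same sum or upper quartile moved the log2 of Lgr6+ values by less than the 1.5-fold that a call needs. Quantile normalization took 1 call, and 2-fold took 8, among them those of *Atp2a2*, *Atp2c1*, *Atp7a* and *Fxyd2*. The spread between libraries, which the table does not give, limits every value.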
